A study of Mus musculus with 16 samples.

Results

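PCGF5 is one of the alternative PCGF subunits of Polycomb repressive complex 1 (PRC1), a complex known for a histone mark of silent genes. The subject here is the set of PCGF5 peaks at promoters of neural progenitor cells (NPC) where neither chromatin mark of the Polycomb system was called. These peaks described here were chosen from the PCGF5 list of NPC by 2 conditions. They overlapped no peak of the wild-type NPC lists of H2AK119ub1 or H3K27me3, and their centre lay within 2500 bp of the start site of a protein-coding transcript. Of 12013 PCGF5 peaks in NPC, 2629 (21.9%) met both. They are called unmarked promoter peaks below, and since they were selected on the wild-type NPC lists, the absence of those marks and the promoter position are not results. The other 512 promoter peaks overlapped at least 1 of the marks (marked promoter peaks), and 8626 unmarked peaks lay away from promoters. Of all promoter peaks 83.7% were thus unmarked, against 97.2% of the peaks elsewhere.

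The study asked what PCGF5 does while mouse embryonic stem (ES) cells turn into neural cells. PCGF5 was precipitated with a Flag antibody from a Sox1-GFP (46C) ES line whose own Pcgf5 gene carried a 3×Flag tag, either as ES cells or as NPC after 6 days of neural differentiation in suspension. H2AK119ub1 and H3K27me3 were precipitated from wild-type cells and from cells with the genotype shPCGF5 (PCGF5-depleted), again as ES cells and as NPC. The labels name a short hairpin RNA, and the study also describes a nuclease knockout of Pcgf5, so the means of depletion is given here as labelled. Each of the 10 groups with a peak list was 1 library, so there is no spread between replicates, no test between conditions was possible, and the intervals below are 95% Wilson intervals that cover counting error alone. A Flag library of cells without the tag was not analysed here. Read totals are not in the lists, so depth is unknown, and a missing peak can mean a weak signal as well as none.

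The mark H2AK119ub1, a ubiquitin on the tail of histone H2A, is the product of PRC1. Polycomb repressive complex 2 (PRC2) methylates a lysine of histone H3 to give H3K27me3, and both marks are known from CpG islands of silent developmental genes. Variant PRC1 complexes, to which PCGF5 belongs, form without the CBX subunits that read H3K27me3. In ES cells promoters of developmental regulators such as the Hox genes are the classical Polycomb targets, while promoters of genes that every cell uses are usually free of these marks.

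To show what these promoters look like, the stretch just upstream of the start site is printed for 8 of them, drawn from several of the groups of genes described below. Each stretch lies inside the PCGF5 peak and outside every annotated exon, was read from the mm9 genome (NCBIM37) and is written on the strand of the gene, ending 1 or 2 bases before the start site. They belong to Fignl1, an ATPase of DNA repair with one of the highest peaks (chr11:11708966-11709165, minus strand), Psmd5, an assembly chaperone of the proteasome (chr2:34726460-34726659, minus), Gars, glycyl-tRNA synthetase (chr6:54987812-54987994, plus), Hist1h4a, a histone H4 gene (chr13:23853100-23853299, minus), Hmgb1, a chromatin protein with the widest peak (chr5:149864617-149864816, minus), Rnf215, whose peak was also called in ES cells (chr11:4035005-4035204, plus), Tgfbr1, a receptor of TGF-beta (chr4:47365894-47366093, plus), and Ephb1, an ephrin receptor (chr9:102257025-102257223, minus). The Tgfbr1 and Ephb1 peaks were overlapped by H3K27me3 peaks of PCGF5-depleted NPC. Capitals mark matches, on either strand, to the short motifs whose shares are given further below, and where matches overlap the capitals run together.
Fignl1: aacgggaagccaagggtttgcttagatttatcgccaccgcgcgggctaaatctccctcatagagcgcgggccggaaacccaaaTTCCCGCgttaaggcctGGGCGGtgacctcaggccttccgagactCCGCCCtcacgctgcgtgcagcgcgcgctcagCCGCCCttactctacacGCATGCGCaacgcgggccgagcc
Psmd5: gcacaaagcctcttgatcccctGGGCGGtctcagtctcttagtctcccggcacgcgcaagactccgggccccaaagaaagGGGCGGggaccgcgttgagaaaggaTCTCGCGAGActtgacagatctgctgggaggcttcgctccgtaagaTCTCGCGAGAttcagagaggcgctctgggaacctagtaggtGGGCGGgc
Gars: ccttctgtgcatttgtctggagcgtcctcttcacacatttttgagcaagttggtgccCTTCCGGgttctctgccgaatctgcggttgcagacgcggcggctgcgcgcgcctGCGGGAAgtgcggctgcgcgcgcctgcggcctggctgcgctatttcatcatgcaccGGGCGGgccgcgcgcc
Hist1h4a: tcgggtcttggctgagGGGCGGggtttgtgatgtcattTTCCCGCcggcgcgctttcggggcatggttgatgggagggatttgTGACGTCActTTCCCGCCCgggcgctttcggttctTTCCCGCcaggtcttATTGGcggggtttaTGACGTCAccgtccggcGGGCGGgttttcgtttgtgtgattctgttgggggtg
Hmgb1: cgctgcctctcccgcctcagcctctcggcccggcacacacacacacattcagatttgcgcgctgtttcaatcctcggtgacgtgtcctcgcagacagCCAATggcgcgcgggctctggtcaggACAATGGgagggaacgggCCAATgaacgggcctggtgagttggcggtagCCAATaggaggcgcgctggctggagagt
Rnf215: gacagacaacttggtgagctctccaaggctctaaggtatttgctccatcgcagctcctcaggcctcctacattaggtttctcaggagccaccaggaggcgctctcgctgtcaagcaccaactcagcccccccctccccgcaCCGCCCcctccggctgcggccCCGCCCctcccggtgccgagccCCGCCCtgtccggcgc
Tgfbr1: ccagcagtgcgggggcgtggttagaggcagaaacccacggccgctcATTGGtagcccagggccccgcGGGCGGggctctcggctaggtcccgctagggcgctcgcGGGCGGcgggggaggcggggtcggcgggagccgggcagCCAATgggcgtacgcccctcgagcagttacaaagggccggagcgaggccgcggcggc
Ephb1: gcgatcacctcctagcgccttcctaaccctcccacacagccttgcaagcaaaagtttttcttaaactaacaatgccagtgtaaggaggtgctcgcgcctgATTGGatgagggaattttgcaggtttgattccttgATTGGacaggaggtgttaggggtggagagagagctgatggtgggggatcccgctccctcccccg

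The SP/KLF letters GGGCGG stood 3 times each in the Fignl1, Psmd5, Rnf215 and Hist1h4a stretches, 2 times in Tgfbr1 and 1 time in Gars, and were not matched in Hmgb1 and Ephb1. The Psmd5 stretch held 2 separate matches to the ZBTB33 letters TCTCGCGAG. Hist1h4a held 2 matches to the cyclic AMP response element (CRE), 3 to the E2F letters and 1 to the NF-Y letters. Hmgb1 held 3 NF-Y matches and 1 SOX match, and Gars held the 1 ETS match of the set. A match says only that the letters are there, not that a factor was bound.

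Most unmarked promoter peaks were low and narrow. Their median fold over background was 2.18 (lowest 1.03, highest 324), the same median as that of the marked promoter peaks and close to the 2.24 of unmarked peaks elsewhere. The fold was under 3 in 87.7% of them, and 57.6% had a −log10 q-value under 3, on a list that begins at 2.00. The median width was 579 bp (range 172 to 6849 bp), against 767 bp for marked promoter peaks and 350 bp for unmarked peaks elsewhere. A width of peaks chosen for touching no mark is partly set by that choice, because a wide peak has more room to touch one.

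Very high folds were not spread over the genome. A fold of at least 8 was reached by 62 members, and 59 of them sat in 7 stretches of 5 Mb that each contained at least 5 PCGF5 peaks of such height. These stretches held 126 members with a median fold of 7.73, and the 2503 other members had a median of 2.16 and a highest value of 12.9. The chromosome 2 stretch, which starts at 175000000, held 7 members with a median fold of 84.6, led by the peak at Ss18l1 and Psma7 (chr2:179776850-179778170, fold 324), by Lsm14b (fold 170) and by Gm10711 (fold 139). Taf4a, a subunit of the general factor TFIID, had 2 members there with folds of 84.6 and 53.0. On chromosome 11 the stretches that start at positions 1 and 5000000 held 36 and 40 members with medians of 8.27 and 8.14. What sets these stretches apart was not tested, and results that rest on them are given with and without them.

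**Figure D1:**
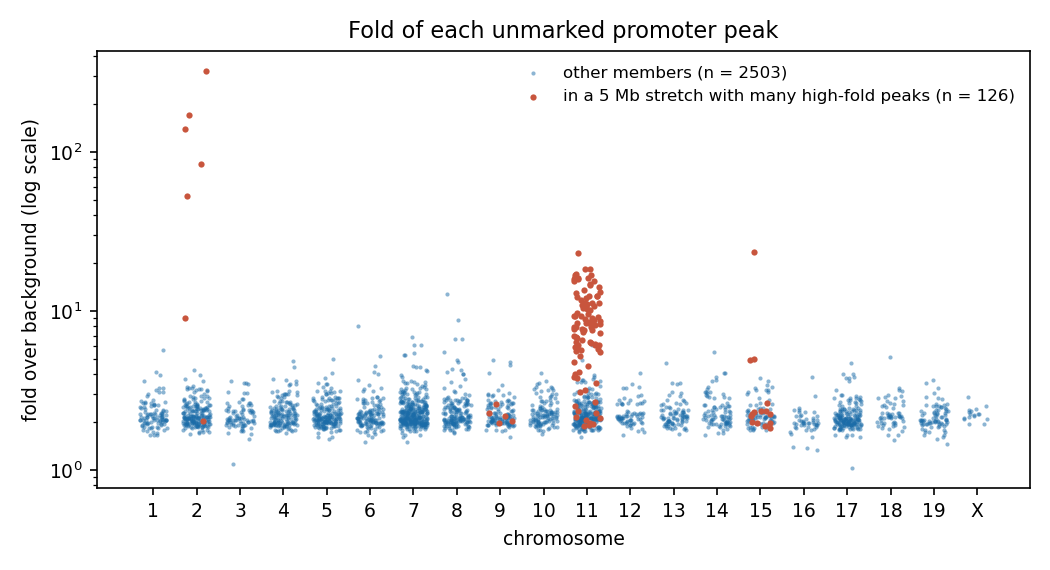
Fold over background (log scale) of every unmarked promoter peak by chromosome, 1 point per peak with random sideways spread. Points in red lie in the 7 stretches of 5 Mb with many high-fold peaks (126 members) and points in blue are the 2503 others, which stay at or under 12.9.

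Outside these stretches the highest peak was at 4933411K20Rik on chromosome 8 (chr8:47248540-47249012), with a fold of 12.9 and a −log10 q-value of 65.7, and the same gene had a further member with a fold of 8.77. Other high members were at Aqp11, a water channel (fold 6.87), Frg1 (6.68) and Slc25a4, the mitochondrial ADP/ATP carrier (6.62). Rabac1 (6.10) and Fignl1 (6.11) were also among the highest, and Sept5 entered by its q-value although its fold was only 1.39. The 3 genes on chromosome 8, namely 4933411K20Rik, Frg1 and Slc25a4, lie within about 5 Mb of each other. The widest members had low folds. Hmgb1 (chr5:149861255-149868103, 6849 bp) had a fold of 1.95, and the peak across H2-Ke6 and Ring1, the gene of RING1A, was 5608 bp wide with a fold of 1.96. Pbx2 with Gpsm3, Brd2 and Dlg4 followed with widths of 5287, 5080 and 5000 bp and folds between 1.93 and 2.06.

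Within the promoter window the peaks gathered at the start site. The centre lay within 100 bp of it in 25.8% of members, within 500 bp in 64.0% (62.2 to 65.8) and within 1000 bp in 75.6%, and the start site itself was inside the peak in 56.6%. The median centre was 46 bp downstream of the start, with 42.9% of centres upstream and 57.1% downstream. Of the marked promoter peaks, whose median centre was 99 bp downstream, 20.7% lay within 100 bp (17.4 to 24.4, against 24.2 to 27.5 for the members) and 307 of 512 within 500 bp (55.7% to 64.1%), both with intervals that overlapped those of the members. Within 1000 bp their share was 80.3% (76.6 to 83.5) against 75.6% (73.9 to 77.2), again with intervals that overlapped. By annotation, 31.9% of member centres fell in an exon of a protein-coding gene, 40.4% in an intron and 27.7% outside genes. A start site of the opposite strand within 1000 bp upstream of the nearest start site was found at 6.47% of members (5.59 to 7.47). For marked promoter peaks the share was 1.95% (1.06 to 3.56). Counted from the first start site of each protein-coding gene it was 8.66%, while the start site nearest a peak can be a later one.

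**Figure D2:**
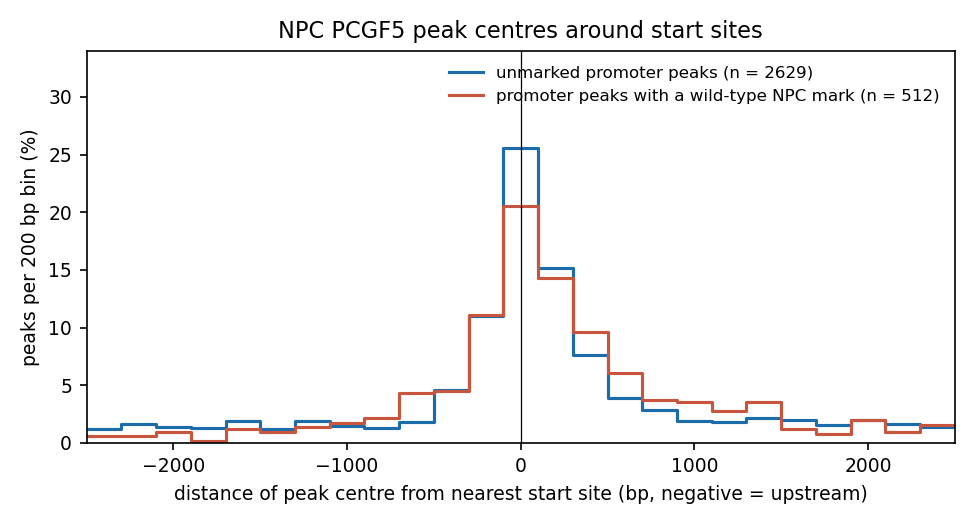
Share of peaks (percent, bins of 200 bp) against the distance of the peak centre from the nearest start site in bp, for the 2629 unmarked promoter peaks (blue) and the 512 marked ones (red). Both are highest in the bin at the start site, where 25.8% and 20.7% of centres lie within 100 bp, and the red line is higher between 500 and 1500 bp downstream (19.7% against 12.6%).

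The choice has sharp edges, as the peaks next to them show. The members nearest to the distance limit were at Prkd2 (2499 bp, fold 3.32), U2af2 (2496 bp, fold 3.24) and Csrnp1 (2495 bp, fold 2.21), and the peaks just beyond it were at Zfand3 (2503 bp, fold 2.69), 4930447A16Rik (2505 bp, fold 2.31) and Arpc1b (2507 bp, fold 2.19). Igfbp5, Ltbp4 and Frmd3 had members that ended 6, 10 and 10 bp from a wild-type NPC mark, with folds of 2.16, 2.78 and 1.77. Peaks at Gng13, Nrgn and 2210011C24Rik were left out because they shared 3, 5 and 8 bp with one, with folds of 2.36, 2.02 and 2.20. Such close calls were few. A wild-type NPC mark lay within 200 bp of 1.98% of members, within 1000 bp of 6.35% (167 members) and within 10000 bp of 15.6%, and the median gap was 69113 bp.

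A gene could still carry a mark elsewhere in its promoter. Among the 2616 genes with a member, 338 (12.9%, 11.7 to 14.3) had a wild-type NPC H3K27me3 peak centred within 2500 bp of a start site, against 15.7% (15.2 to 16.1) of all 22232 protein-coding genes, and 73 (2.79%, 2.23 to 3.49) had an H2AK119ub1 peak against 4.98%. The choice of unmarked peaks lowers these shares by itself. At 76 genes an unmarked and a marked PCGF5 peak stood side by side. Nodal, the ligand that keeps ES cells from neural fate and a gene the study looked at, was one of them. Its member (chr10:60879069-60879258, fold 2.02) lay 1557 bp upstream of the start site and 1222 bp from the nearest mark, next to 1 marked PCGF5 peak and 2 wild-type NPC H3K27me3 peaks.

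The 7 lists that the choice did not use show how often these places carried a mark in other cells, and they rarely did. H3K27me3 of PCGF5-depleted NPC overlapped 86 of the 2629 members (3.27%, 2.66 to 4.02), against 5.68% of all NPC PCGF5 peaks, 65.8% of the marked promoter peaks (61.6 to 69.8) and 1.03% of unmarked peaks elsewhere (0.839 to 1.27). H2AK119ub1 of the same cells overlapped 11 members (0.418%, 0.234 to 0.748), against 1.42% of all PCGF5 peaks and 18.2% of the marked promoter peaks. In wild-type ES cells H3K27me3 overlapped 83 members (3.16%, with 4.39% of all PCGF5 peaks and 51.8% of the marked ones) and H2AK119ub1 overlapped 37 (1.41%, with 2.76% and 21.9%).

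PCGF5-depleted ES cells gave similar shares, with H3K27me3 at 70 members (2.66%, against 3.89% of all PCGF5 peaks) and H2AK119ub1 at 29 (1.10%, against 1.93%). Taking the 6 histone lists together, 2429 members (92.4%, 91.3 to 93.3) met none of them and 200 met at least 1. The share without any was 90.5% of all NPC PCGF5 peaks, 95.9% of unmarked peaks elsewhere (95.5 to 96.3) and 21.7% of marked promoter peaks (18.3 to 25.5), so the members were near the share of all PCGF5 peaks. Promoter peaks chosen as unmarked in wild-type NPC were mostly without a called mark also in ES cells and after depletion, while marked promoter peaks carried H3K27me3 in 44.9% to 65.8% of cases in each of these 3 cell states. Both classes were split by the same marks in wild-type NPC, so a contrast in these marks between them is largely set by the choice. Wild-type and depleted lists come from 1 library each and differ in length, so the number of members with a mark in one and not in the other is not a measured gain or loss.

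**Figure D3:**
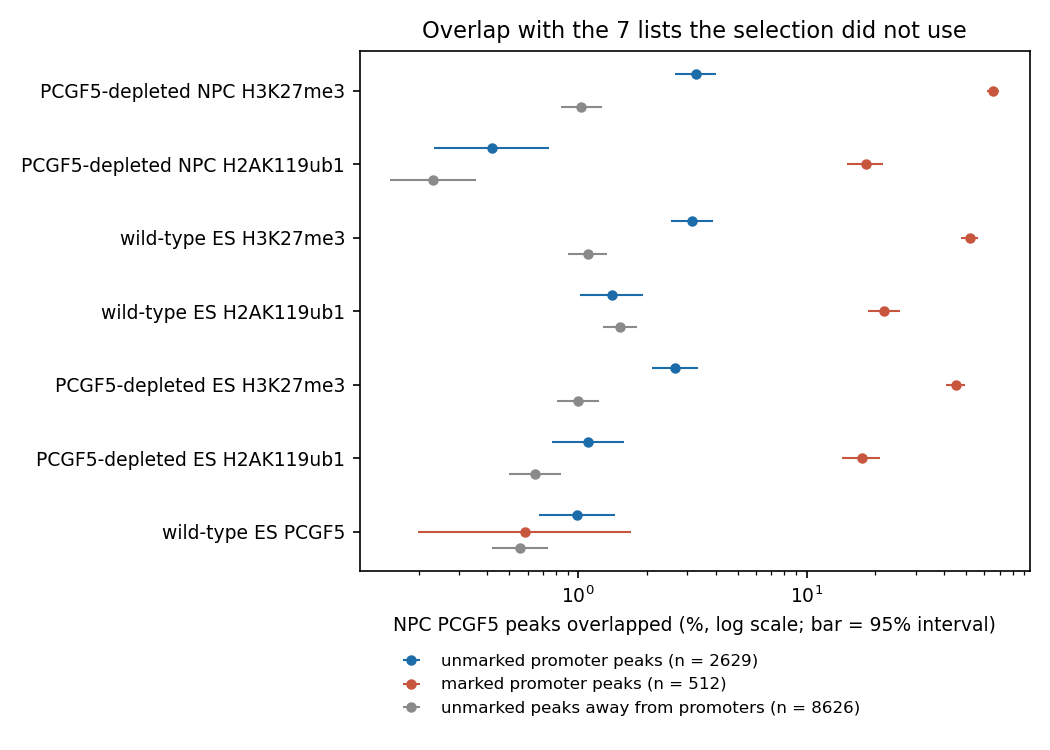
Share of NPC PCGF5 peaks (percent, log scale, 95% Wilson intervals) overlapped by each of the 7 lists not used for the choice, for unmarked promoter peaks (blue), marked promoter peaks (red) and unmarked peaks away from promoters (grey). For the 6 histone lists the blue points lie between 0.418% and 3.27% and the red ones between 17.4% and 65.8%, and for ES PCGF5 the 3 intervals overlap.

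Members near a mark met the H3K27me3 lists more often. Of the 167 members with a wild-type NPC mark within 1000 bp, H3K27me3 of PCGF5-depleted NPC overlapped 31 (18.6%, 13.4 to 25.1), and of the 2462 farther members it overlapped 55 (2.23%, 1.72 to 2.90). For H3K27me3 of wild-type ES cells the counts were 20 (7.89% to 17.8%) and 63 (2.56%), and for that of depleted ES cells the shares were 11.4% and 2.07%. ES PCGF5 overlapped 0 of the near members and 26 of the farther ones (1.06%), a share that the interval of the near members (up to 2.25%) holds. Of these 26, 14 lay in the high-fold stretches. The 86 members with H3K27me3 in depleted NPC had a median gap of 7360 bp to a wild-type mark and a median width of 864 bp, against 70477 bp and 571 bp for the rest, and the same median fold to within 0.01 (2.17 and 2.18). The H3K27me3 peaks over them had a median width of 318 bp and a median fold of 4.06, near the 360 bp and 4.11 of all H3K27me3 peaks of depleted NPC, while those over the marked promoter peaks had 733 bp and 4.68. Of the 86, 28 were also overlapped by H3K27me3 of wild-type ES cells, and 46 were overlapped in neither ES list.

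To compare promoters of the same size, windows of 579 bp were laid on the first start site of every protein-coding gene. Of 22232 windows, 19898 touched no wild-type NPC mark, and 1767 of these touched an NPC PCGF5 peak. H3K27me3 of PCGF5-depleted NPC overlapped 2.66% of the unmarked windows with PCGF5 (2.01 to 3.52) and 1.60% of those without (1.43 to 1.80). For wild-type ES H3K27me3 the shares were 3.51% (2.75 to 4.47) and 2.71% (2.49 to 2.96), and for depleted ES H3K27me3 2.49% and 2.08%, with intervals that overlapped. The H2AK119ub1 shares stayed under 0.5% in every list and their intervals overlapped between windows with and without PCGF5. The first pair is the single one of the 6 histone pairs whose intervals did not overlap, and the windows are not replicates of a condition. The windows were matched for size and not for CpG content. Genes with and without a member differ in the CpG content of their first start site, as given below. How far this enters the first pair was not tested.

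The named genes with H3K27me3 in depleted NPC include regulators and signalling genes. The highest H3K27me3 fold was 7.43, over a member 692 bp upstream of Meis2, a homeodomain gene (chr2:115891334-115893200, PCGF5 fold 2.25), and a further Meis2 member had an H3K27me3 fold of 5.92 and was also overlapped by both marks of wild-type ES cells and by H2AK119ub1 of depleted ones. Ephb1 followed with 7.03 (chr9:102256733-102257301), then Sp6 (6.91), Dach1 (6.80), Adcy6 (6.58), Cdh6 (6.24), Id1 (6.16), Ddr1 (5.85) and Tnfrsf19 (5.84). The wild-type mark was close to Dach1 (414 bp) and Ephb1 (677 bp) and far from Cdh6 (432945 bp) and Tnfrsf19 (636759 bp). Both marks of depleted NPC met at 7 members. These were at Ephb1, the synaptic gene Nrxn2, the growth factor receptor gene Fgfr2, Lrrc4b, 4921510H08Rik, Dux and Cdh2.

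Cdh2, the neural cadherin, is a gene the study used as a neural marker. Its member, centred 184 bp downstream of a start site, had a PCGF5 fold of 1.91 and was overlapped by H3K27me3 (fold 4.24) and H2AK119ub1 (fold 4.15) of depleted NPC and by none of the 4 ES histone lists. By ChIP-qPCR the study reported PCGF5 at the Cdh2 promoter in NPC. It also reported that both marks fell there from ES cells to NPC and that PCGF5 loss blocked the fall. No overlap with the ES lists therefore does not mean that the marks were absent there in ES cells. Fgfr2 (chr7:137408726-137410075, PCGF5 fold 1.97) was overlapped in all 6 histone lists other than those of wild-type NPC, with folds between 4.27 and 6.16, and so was Lrrc4b. Ccdc85c had the highest H2AK119ub1 fold in depleted NPC (7.05), Ubl4b had 5.35, and Plekha7 and Vangl1, a planar polarity gene, had 4.42 and 4.24, all 4 without H3K27me3 there. Dux (chr10:57688019-57688351) also met all 6 lists, but it belongs to a family of near-identical copies, so the placement of its reads is uncertain.

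Few members were PCGF5 peaks in ES cells too, where the list is short (653 peaks). ES PCGF5 overlapped 26 members (0.989%, 0.676 to 1.45), against 0.658% of all NPC PCGF5 peaks and 0.586% of marked promoter peaks. Of the 26, 17 lay on chromosome 11 and 14 in the high-fold stretches. Outside the stretches 12 of 2503 remained (0.479%, 0.274 to 0.836). In the equal windows the share was 1.13% with NPC PCGF5 (0.734 to 1.74) and 0.265% without (0.200 to 0.351), and outside the stretches it was 0.474% (0.241 to 0.934) and 0.240% (0.178 to 0.323), so the separation of the intervals rested on the stretches.

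The shared peaks of highest NPC fold were all in these stretches of chromosome 11. Rnf215 (chr11:4034880-4035353) had folds of 13.3 in NPC and 20.3 in ES cells, Zmiz2 had 12.4 and 10.2, Cep68 had 12.4 and 3.54, and Gatsl3 had 11.3 and 10.7. Outside them the NPC folds were at most 2.37, while the ES folds varied. Lrrc47 had 2.37 and 2.61, Vdac1, a channel of the outer mitochondrial membrane, had 2.16 and 3.40, Numb, a regulator of Notch signalling, had 2.00 and 2.43, Nr1d2, a clock gene, had 1.81 and 4.04, and 3010026O09Rik had 1.79 and 11.9. Folds of different libraries are set side by side here and were not compared.

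Genes with an unmarked promoter peak numbered 2616 of 22232 (11.8%, 11.3 to 12.2), and 2349 of these genes had 1 member. A total of 280 members served 2 genes and 5 served 3. The background depends on the base composition of promoters. When the 500 bp around the first start site were CpG-rich (GC of at least 50% and a ratio of observed to expected CpG of at least 0.6), 16.8% of genes had a member (16.1 to 17.5), and otherwise 7.06% (6.60 to 7.54). The 21 gene lists below were defined by name or by symbol pattern, and genes with more start sites have more places for a member. A pattern can take in genes outside the function a list is named for, such as Cdc42bpb and Cdc42se1 among replication and cell cycle genes.

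Among the lists of genes that every cell uses, proteasome subunits had the highest share, 13 of 39 (33.3%, 20.6 to 49.0). They included subunits of the core (Psma1, Psma3, Psma7, Psmb6, Psmb10), of the ATPase ring (Psmc3, Psmc6) and of the regulatory particle (Psmd6, Psmd7, Psmd8, Psmd11, Psmd12) with the assembly factor Psmd5. Folds were 3.57 at Psmd12, 2.91 at Psmd5 and 2.72 at Psmd8, and the Psma7 peak of fold 324 is the one in the chromosome 2 stretch. Aminoacyl-tRNA synthetases, which charge tRNAs, had 10 of 37 (95% interval 15.4% to 43.0%), with Ears2 (fold 3.14) and Gars (2.40). Cytosolic ribosomal proteins had 21 of 85 (24.7%, 16.8 to 34.8), with Rpl3 (3.30), Rpl5 (2.75), Rps16 (2.51) and Rpl12, whose peak it shares with Lrsam1 (2.54). Of all genes 11.8% had a member. Within CpG-rich start sites the shares were 34.3% for proteasome genes (20.8 to 50.8), 25.7% for synthetases (14.2 to 42.1) and 23.7% for ribosomal proteins (15.5 to 34.4). The synthetase and ribosomal intervals hold the 16.8% of all such genes, and the proteasome interval lies above it. Of the 161 genes in these 3 lists 0 had a marked PCGF5 promoter peak (95% interval up to 2.33%), against 2.32% of all genes. Such a peak needs a wild-type NPC mark. H3K27me3 was called there at 0 ribosomal protein genes, 0 synthetase genes and 2 proteasome genes, so a count near 0 was largely set in advance.

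Shares were lower in the other lists of this kind. Genes for ubiquitin conjugation and removal had 19 of 95 (13.2% to 29.1%), led by Cul9 (fold 3.79), and translation factors with their regulators had 13 of 67 (19.4%), led by the kinases Eef2k (3.09) and Eif2ak1 (2.90), which act on the factors. Replication and cell cycle genes had 18 of 97 (18.6%), with Pole3 (3.72) and Cdc26 (3.47), splicing genes 13 of 77 (16.9%), with U2af2 (3.24) and Lsm7 (2.71), chaperones 13 of 81 (16.0%), with the chaperonin subunits Cct7 (2.86) and Cct2 (2.23), and the respiratory chain 14 of 91 (15.4%), with Atp5b (2.49). RNA polymerase, general factor and Mediator subunits had 14 of 95 (14.7%), with Polr3c (3.06) and Med25 (2.67), and mitochondrial ribosomal proteins 10 of 76 (13.2%, 7.31 to 22.6), near the 11.8% of all genes.

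Together these 11 lists had 158 of 840 genes with a member (18.8%, 16.3 to 21.6). However, 84.5% of their genes had a CpG-rich first start site, against 48.3% of all genes, and within CpG-rich start sites the shares were 19.7% (17.0 to 22.8) and 16.8% (16.1 to 17.5), with intervals that overlapped. Taken singly within CpG-rich start sites, each of the 11 lists apart from the proteasome had an interval that holds this 16.8%. A marked PCGF5 promoter peak was found at 4 of the 840 genes (0.476%, 0.185 to 1.22), against 2.32% of all genes (2.13 to 2.52). Wild-type NPC H3K27me3 was called at 0% to 10.4% of the genes of each list, against 15.7% of all genes. The low share of marked peaks is thus largely set by the marks.

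**Figure D4:**
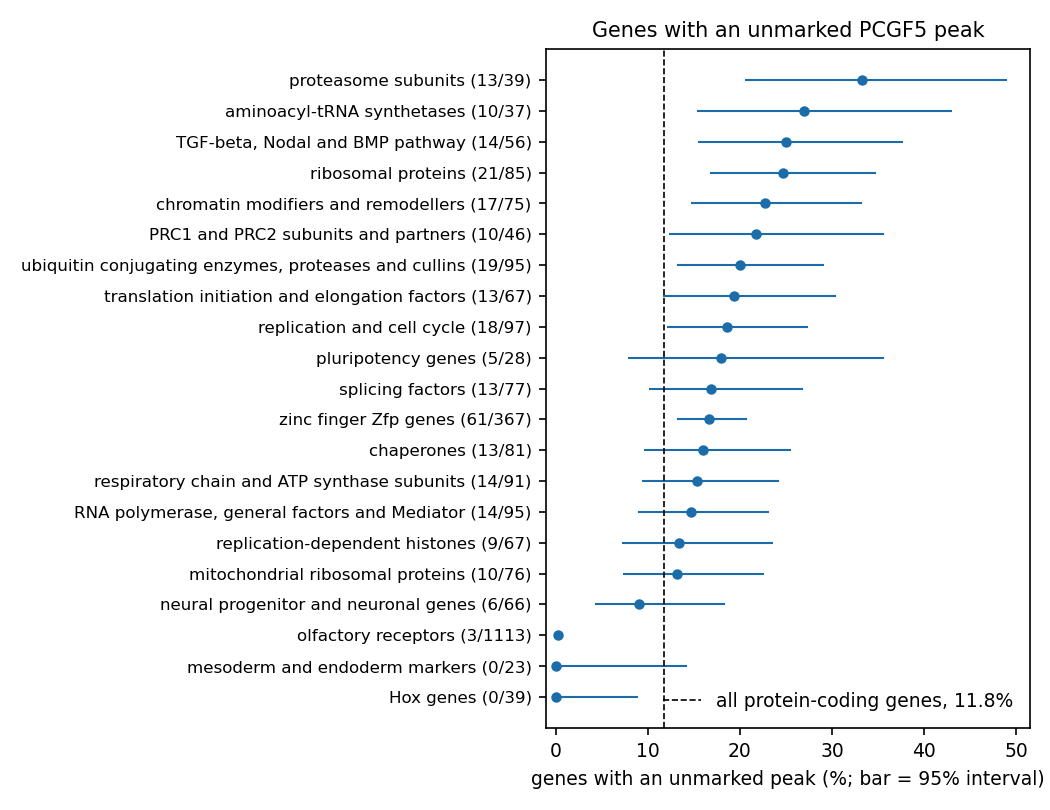
Share of the genes of each list with an unmarked promoter peak (percent, 95% Wilson interval, counts in brackets), with the 11.8% of all protein-coding genes as a dashed line. Proteasome subunits are highest (33.3%), and Hox genes, mesoderm and endoderm markers and olfactory receptors are at or near 0.

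Genes of chromatin and transcription were also found. Chromatin modifiers had 17 of 75 (22.7%, 14.7 to 33.3), with the histone deacetylase genes Hdac2 (chr10:36694009-36694396, fold 3.28) and Hdac3, whose peak it shares with Rell2 (2.97). Zinc finger genes of the Zfp family had 61 of 367 (16.6%, 13.2 to 20.8), led by Zfp418 (5.45), Zfp954 (3.95) and Zfp773 (3.61), which neighbour each other on chromosome 7. Replication-dependent histone genes had 9 of 67 (13.4%), with Hist4h4 (3.13), Hist1h4c (2.38) and a single peak of fold 2.31 that serves Hist1h1a, Hist1h3a and Hist1h4a. The share of all genes was 11.8%. Within CpG-rich start sites the shares were 21.7% for chromatin modifiers (13.1 to 33.6), 20.2% for Zfp genes (15.4 to 26.0) and 15.7% for histone genes (8.17 to 28.0). Each of these intervals holds the 16.8% of all such genes. Zfp genes and histone genes occur as many similar copies, so reads could be shared between them.

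Subunits of the Polycomb complexes themselves were among the genes, 10 of 46 (21.7%, 12.3 to 35.6, with 11.8% of all genes). Within CpG-rich start sites the share was 24.3% (13.4 to 40.1), with an interval that holds the 16.8% of all such genes. Dcaf7, a partner of the variant PRC1 complexes that contain PCGF3 or PCGF5, had the highest fold of them (chr11:105897732-105898936, fold 3.67). The others of PRC1 and its partners were Ring1, Pcgf2 (2.12), Kdm2b, which binds unmethylated CpG (2.06), Fbrsl1 (1.88), L3mbtl2 (2.34), Csnk2a2, a casein kinase subunit (2.42 and 2.27), and Usf1 (2.42 and 2.28), and those of PRC2 were Eed (2.02) and Phf1 (1.92). Pcgf5 itself had no PCGF5 promoter peak and 2 wild-type NPC H3K27me3 peaks.

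In the TGF-beta, Nodal and BMP pathway, which holds back neural fate, 14 of 56 genes had a member (25.0%, 15.5 to 37.7, with 11.8% of all genes). Within CpG-rich start sites the share was 18.4% (9.22 to 33.4), near the 16.8% of all such genes, and at other start sites 7 of 18 genes had one (20.3% to 61.4%, with 7.06% of all such genes). The ligands were Nodal (2.02), Inhba (2.27) and Tgfb3 (2.25), with the ligand-binding proteins Fst (2.49 and 2.00) and Ltbp4 (2.78 and 2.01), and the receptors were Acvr2b (chr9:119310647-119313272, 3.42) and Tgfbr1 (1.86). The intracellular members were Smad1 (2.15), Smad4 (2.83), Smad7, an inhibitor of the pathway (2.70 and 2.00), Foxh1 (1.92) and Tgif1 (2.65), and the target genes were Id1 (1.96) and Id3 (2.05). Of these 14 genes, Id1, Id3 and Tgfbr1 were overlapped by H3K27me3 of depleted NPC, with H3K27me3 folds of 6.16, 3.26 and 3.55. In the whole list 26 of 56 genes had a wild-type NPC H3K27me3 peak, and 4 had a marked PCGF5 promoter peak. Lefty1, Lefty2 and Smad2 had neither kind of PCGF5 promoter peak. The study, however, counted Lefty1 and Lefty2 among its PCGF5 target genes and reported PCGF5 at both promoters in NPC by ChIP-qPCR. A missing peak here therefore does not mean that PCGF5 was absent.

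The lists of developmental genes differed from each other. Of 39 Hox genes none had an unmarked promoter peak (95% interval up to 8.97%), while 38 had a wild-type NPC H3K27me3 peak and 4 a marked PCGF5 peak. The 23 mesoderm and endoderm markers had no member (up to 14.3%), 20 genes with H3K27me3 and 3 with a marked PCGF5 peak. The requirement that a peak touch no mark lowers the counts in lists with so much H3K27me3. Neural genes had 6 of 66 (9.09%, 4.23 to 18.4, an interval that holds the 11.8% of all genes), namely Cdh2 (1.91), Notch1 (1.85), Gli2 (2.64 and 2.25), Msi2 (1.85), Gap43 (1.38) and Prom1 (1.82), all with folds near or under the median apart from the higher Gli2 peak. Nes had no PCGF5 promoter peak and Pou3f2 had a marked one. By ChIP-qPCR the study reported PCGF5 at the promoters of both in NPC. Pluripotency genes had 5 of 28 (17.9%, 7.88 to 35.6), namely Klf5 (2.49), Lin28a (1.99), Lin28b (2.24), Tet2 (1.77) and Nodal. Olfactory receptors, which serve in olfactory neurons and are without CpG-rich start sites in this annotation, had 3 of 1113 (0.270%), and 4 of them had wild-type NPC H3K27me3.

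Taken over all members, the base composition around the peak centres was near that of all start sites. In the 500 bp around the centre, members had a median GC content of 58.8% and a median CpG ratio of 0.599, and 49.1% were CpG-rich (47.2 to 51.1), against 55.3% of marked promoter peaks (50.9 to 59.5), 47.3% of all 45974 start sites and 1.40% of unmarked PCGF5 peaks elsewhere. Position separated the members themselves. Of those centred within 500 bp of a start site 71.5% were CpG-rich (69.3 to 73.6), and of those farther away 9.30% (7.61 to 11.3). The nearer members thus lay above the 47.3% of all start sites and the farther ones below it. Members with H3K27me3 in depleted NPC were not set apart by this measure (46.5%, 36.3 to 57.0).

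The motifs with the clearest contrast to marked promoter peaks were those known from promoters of widely used genes. The ETS letters CCGGAAG were matched, on either strand, in 15.6% of members (14.3 to 17.0), 5.86% of marked promoter peaks (4.13 to 8.24) and 14.0% of all start sites. Among CpG-rich windows alone the shares were 25.3% (23.0 to 27.8), 6.01% (3.78 to 9.41) and 23.6%, so the contrast was also seen at matched CpG class. For the NRF1 letters GCGCATGC the shares were 4.07%, 1.56% and 3.77%, for the YY1 letters AAGATGGC 4.79%, 2.34% and 4.89%, and for NF-Y (CCAAT) 45.3%, 38.1% and 46.1%. The intervals of members and marked peaks did not overlap for ETS, NRF1 and NF-Y, and they overlapped by less than 0.1 percentage points for YY1. Taken over all members, each of these shares was near that of all start sites, and the marked peaks stood apart from both. Position split the members here too. Centred within 500 bp of a start site, they had ETS in 21.6% (19.7 to 23.6), NRF1 in 5.76% (4.75 to 6.98) and YY1 in 5.82% (4.80 to 7.05). The farther members had 4.97%, 1.06% and 2.96%. For NF-Y the shares were alike, 44.9% and 46.0%.

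For the other motifs the intervals of members and marked promoter peaks overlapped. SP/KLF (GGGCGG) was matched in 55.0% of members, 60.4% of marked promoter peaks and 52.6% of start sites, the E-box CACGTG in 10.9%, 8.01% and 10.4%, E2F (TTCCCGC) in 10.2%, 10.7% and 9.79%, CRE (TGACGTCA) in 2.51%, 0.977% and 2.36% and ZBTB33 (TCTCGCGAG) in 0.913%, 0.195% and 1.00%. The TATA letters TATAAA stood in 7.38% of members (6.44 to 8.44), 8.20% of marked promoter peaks and 14.9% of all start sites (14.6 to 15.2). Among CpG-rich windows alone the shares were 4.64% (3.62 to 5.93), 8.48% (5.76 to 12.3) and 5.69% (5.39 to 6.00). There the intervals of members and start sites overlapped. Letters of factors tied to pluripotency, neural fate or signalling were rare at this length, with SOX (ACAATGG) in 3.73% of members and 4.49% of start sites, the octamer ATGCAAAT in 1.48% and 1.86%, AP-1 (TGANTCA) in 8.22% and 9.33%, REST (TTCAGCACC) in 0.723% and 0.777% and SMAD (GTCTAGAC) in 0.494% and 0.328%. The SP/KLF and E2F letters can share bases, as in the Hist1h4a stretch.

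**Figure D5:**
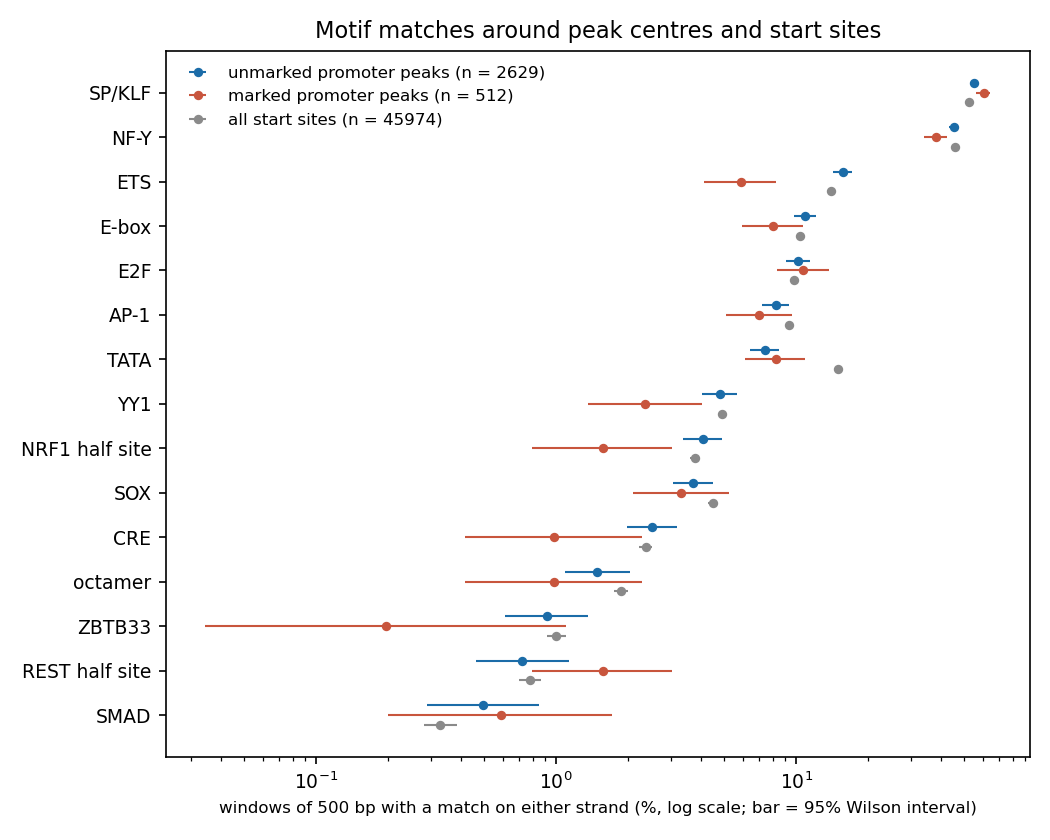
Share of windows of 500 bp (percent, log scale, 95% Wilson intervals) with a match to each of 15 motifs, around unmarked promoter peaks (blue), marked promoter peaks (red) and all start sites (grey). Blue and grey lie close together for most motifs apart from TATA (7.38% and 14.9%), and red lies apart for ETS (5.86% against 15.6%). Among CpG-rich windows alone, not drawn here, the TATA intervals of members and start sites overlapped.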

How the data were processed

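The series has 16 ChIP-seq libraries with 1 in each group. Peak lists of 10 were used, and the 6 inputs were left out. Per the study's methods, histone chromatin was cut with micrococcal nuclease before light fixation, and Flag-PCGF5 chromatin was crosslinked with EGS plus formaldehyde and then sheared by sonication. For reads, the authors used Trimmomatic, Bowtie2 on mm9 and Picard, and then MACS2 separately for each library (version 2.1.0 in the submitters' processing notes). Every row of the deposited lists holds the score, the fold over background and the −log10 of the p-value and of the q-value. Peaks called separately depend on the depth and background of each library, so an absent overlap may be a peak under the threshold, and the Drosophila spike-in does not enter the lists.

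Peak intervals were taken as 1-based. No peak ran past a chromosome end of NCBIM37 (mm9), and start sites came from GENCODE M1 (22232 protein-coding genes). Overlap meant at least 1 bp. The counts were checked with bedtools 2.31.1 (9 overlaps, 0 differences) and the overlap code was tested on simulated data. Shares carry 95% Wilson intervals from scipy 1.17.1. Sequence was read with pysam 0.24.0 from the mm9 genome. The members, gene lists, motifs and comparators were chosen with earlier results of these data known. The windows of equal size and the split of genes by CpG content were added after the data had been seen. Named genes were the 10 members with the highest −log10 q-value outside the high-fold stretches and the 5 highest within them, the 5 widest, the 5 genes with most members, up to 4 of highest fold per gene list, the 10 of highest NPC fold shared with ES PCGF5, the 10 of highest fold for each mark in PCGF5-depleted NPC, the peaks next to each limit and the genes of the study. The ES-shared members outside the stretches and the further members of the Polycomb, TGF-beta, neural and pluripotency lists were added after their values were seen. Sox1 was not analysed here, and some genes that the rule names are not reported here. Alternatives covered the overlap, the promoter window, the score, the distance to a mark, the high-fold stretches and the motif window.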

Additional observations from a re-analysis of the deposited data

How the results depend on the processing

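Of 98 values recomputed, 78 stayed within the interval of the reported share or, for counts of peaks and genes, within 1.5 times the reported count, and none was a test. Keeping the higher-scoring 50% of the NPC PCGF5 list left 1297 unmarked promoter peaks at 1296 genes, and overlap with H2AK119ub1 of PCGF5-depleted NPC at 0.154%. When only overlaps covering at least 50% of the PCGF5 peak counted, also for the choice, the shares fell to 0.532% for ES PCGF5, 2.06% and 0.106% for H3K27me3 and H2AK119ub1 of depleted NPC, 1.60% and 0.390% for those of wild-type ES cells, and 0.887% and 0.248% for those of depleted ES cells. With the higher-scoring 50% of every histone list, H2AK119ub1 overlapped 0.145% (depleted NPC), 0.977% (wild-type ES) and 0.760% (depleted ES). Counting a mark within 1000 bp as marked gave 2.23% for H3K27me3 of depleted NPC and 2.07% for that of depleted ES cells. Without the high-fold stretches ES PCGF5 overlapped 0.479%. With a promoter window of 1000 bp, 63.3% were CpG-rich and 84.7% lay within 500 bp of a start site, and with any base of the peak within 2500 bp 61.9% did. In 200 bp around the centre 4.22% held an E-box. The narrower windows hold fewer bases or fewer far peaks by construction. Keeping 50% of the PCGF5 list likewise lowers the counts of peaks and genes. A stricter overlap or shorter histone lists leave fewer overlaps to count, while they also let in further members. Counting a mark within 1000 bp as marked keeps the farther members alone, whose shares are given above. For the remaining shifts the cause was not tested. No paired analysis was possible because each group is 1 library, and for the same reason no replicate could be left out. Depth is unknown, so no limit of detection can be given.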

Other observations

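Some genes carried several unmarked promoter peaks, at separate start sites or around the same one. Arap1, an activator of small GTPases, had 5, with folds between 2.06 and 2.89, and the one at chr7:108493749-108495279 was also overlapped by H2AK119ub1 of PCGF5-depleted ES cells. Crhr1, the receptor of corticotropin-releasing hormone, and Sept9, a septin, had 4 each, with folds of 2.28 to 2.86 and 1.79 to 3.60. Abi3 and Gngt2, which lie next to each other on chromosome 11, shared 3. In all, 236 genes had 2 members and 27 had 3.

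Members were unevenly spread over the chromosomes. A member was found at 18.9% of the genes of chromosome 11, where 245 of 344 members lay outside the high-fold stretches, at 15.7% of those of chromosomes 7 and 17, and at 15.1% of those of chromosome 8. Chromosome 16 had 7.78% and the X chromosome 1.94%, with 17 members of 26 PCGF5 peaks at 927 genes. The coverage of the chromosomes by reads is not in the lists and was not tested.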
